A study of Homo sapiens with 6 samples.

Results

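The genes described here are 3 β-thymosins (TMSB4X, TMSB10, TMSB15A), the actins ACTB and ACTG1, and 5 other genes whose proteins bind actin (PFN1, PFN2, CFL1, CFL2, GSN). They are 10 of the 23931 genes with a named probe set, a group of array probes read as 1 value, and all 10 had one. They were chosen as a family, with results of the same tumours already known, so their differences between the groups are given as a description. Intervals and counts from limma are printed for them for scale only, and no call rests on them. Transcript signal was measured in tumours of Huh7, a human hepatocellular carcinoma line, grown under the skin of nude mice, which lack T cells but keep macrophages and other leukocytes. In 3 IR-A tumours the cells carried the plasmid pRcCMVi.hIR-A(GFP), which encodes isoform A of the human insulin receptor, and in 3 control tumours they carried the empty vector. Cells of both kinds had been selected by G418 and by cytometry for GFP before injection. The labels do not say whether either kind was a single clone, nor give the age of the mice or the mouse each tumour came from, so the spread between tumours may be partly technical.

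Actin exists as free monomers and as filaments, and cells move and keep their shape by exchanging one for the other. β-Thymosins are small proteins that hold monomers in reserve. Profilins hand monomers to growing filament ends, cofilins sever old filaments and return monomers, and gelsolin severs filaments and caps their ends in response to calcium. Free monomers also hold back the coactivators MRTFA and MRTFB, which otherwise drive the transcription factor SRF at sites called CArG boxes. In the liver, actin filaments support the bile canaliculi, and ACTB and ACTG1 encode the 2 cytoplasmic actins.

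RefSeq promoter windows were read for 8 of the 10 genes, all but PFN2 and ACTB, 14 windows in all, each with 250 bases before and 50 after a start of transcription. The 120 bases before the start are shown for TMSB4X, which differed most between the groups, for its paralog TMSB10, which differed least, and for ACTG1, the one of these 8 with a CArG box. Capitals mark GC boxes (GGGCGG or its complement CCGCCC) and the CArG box.
TMSB4X (GRCh38.p14, chrX:12974990-12975109, + strand): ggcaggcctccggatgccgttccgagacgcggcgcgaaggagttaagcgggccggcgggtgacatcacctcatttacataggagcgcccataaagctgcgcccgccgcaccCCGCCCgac
TMSB10 (GRCh38.p14, chr2:84905536-84905655, + strand): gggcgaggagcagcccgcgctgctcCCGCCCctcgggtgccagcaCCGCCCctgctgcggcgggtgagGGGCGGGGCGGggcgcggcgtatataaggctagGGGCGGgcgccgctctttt
ACTG1 (GRCh38.p14, chr17:81512800-81512919, - strand): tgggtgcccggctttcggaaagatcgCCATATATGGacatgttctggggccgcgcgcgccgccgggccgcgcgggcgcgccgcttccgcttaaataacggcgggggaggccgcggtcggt
The stretch before TMSB4X held 1 GC box and that before TMSB10 held 5, and neither held a CArG box. Over whole windows on both strands, a CArG box was in 1 of the 14 windows, that of ACTG1, and in 1.29% of all 35116 windows. A GC box was in 12 of the 14 and in 45% of all. The sequence TATAAA was in 1, a window of GSN, and in 11.5% of all. No match means only that these letters are not in the window.

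Values are log2 signals, so a difference of 1 is a factor of 2. No level of one gene is set against that of another, but genes and lists are placed as bright or dim among all probe sets. INSR, the gene added, lay between 10.65 and 11.31 in IR-A tumours and between 7.61 and 8.47 in control tumours. Its difference was 2.95 (SE 0.26, adjusted p = 0.077 in limma), so even the gene added was not called at an adjusted p of 0.05. Of 24726 probe sets, limma called 0 (0%) at an adjusted p of 0.05 and 3493 (14.1%) at an unadjusted p under 0.05, and the groups did not overlap in 17.2%. Control tumour 2 stood apart from its group across all probe sets. Its mean correlation was 0.987 with the IR-A tumours and 0.982 with the other control tumours, so values of the 10 genes without it are given where they change sign or move by over 1.5 times. Hepatocyte and hepatoma markers fitted the labelled cell type, with 12 of 12 measured markers, among them ALB and AFP, above the median probe set. Their mean log2 signal was also higher, at 11.45 to 11.53 in IR-A and 11.19 to 11.41 in control tumours, without overlap. Of the 12, 9 were higher by mean, and APOA1, APOB, FGB, TF and GPC3 were so without overlap, against 7.73% of all probe sets. The part of this shift in the differences described here was not tested. Of the 10 genes, 9 lay above the median probe set, and TMSB15A lay in the dimmest 25%.

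TMSB4X, the most abundant monomer-binding thymosin of many cell types, had the largest difference of the 10. Its log2 signal was 10.15, 10.23 and 9.22 in the IR-A tumours, against 7.50, 8.17 and 6.19 in the control tumours. Every IR-A tumour lay above every control tumour, with a gap of 1.05 between the nearest ones. The mean was 9.87 ± 0.56 in IR-A and 7.29 ± 1.01 in control tumours (SD, n = 3 each), a log2 difference of 2.58 (SE 0.53, 95% interval 1.32 to 3.84) or 5.98-fold. By size of difference in either direction it ranked 12 of 23931 genes. The control tumours spread widely, over 1.99 on the log2 scale, against 1.00 among IR-A tumours. Leaving out control tumour 3, the lowest, gave a difference of 2.03, and leaving out control tumour 2 gave 3.02. In bulk tumour RNA, a change in the number of cells of a type and a change in RNA per cell cannot be told apart.

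TMSB4X is abundant in leukocytes, and mouse transcripts of the host can bind to probes of conserved genes. Leukocyte and macrophage markers were therefore set beside it. Of 12 markers, 6 had a higher mean in IR-A tumours. The mean log2 signal of the list was 5.67 to 5.80 in IR-A and 5.49 to 5.66 in control tumours, without overlap by a narrow margin. The median difference of the 12 was 0.0078. Of them, 2 were higher and 1 lower without overlap (7.73% and 9.45% of all probe sets). TYROBP, a signalling adaptor of myeloid cells, had 7.47, 7.25 and 6.89 in IR-A tumours and 5.42, 5.96 and 4.88 in control tumours. The lysosomal protein gene CD68 had a mean of 10.95 in IR-A and 10.33 in control tumours, also without overlap. FCER1G, an Fc receptor subunit, lay the other way, at 4.09 in IR-A and 4.69 in control tumours. PTPRC, the pan-leukocyte marker CD45, lay in the dimmest 25% of probe sets together with CD14 and CD53, at 2.86 in IR-A and 2.93 in control tumours. The part of host cells in the TMSB4X difference was not tested.

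TMSB10 encodes thymosin β10, another widely expressed monomer-binding thymosin, and its group means lay close together. It had 11.16, 11.06 and 10.97 in IR-A tumours and 10.62, 10.98 and 11.43 in control tumours. The IR-A values lay inside the range of the controls. The difference was 0.052 (SE 0.20, 95% interval -0.43 to 0.54), and it was -0.14 without control tumour 1 and 0.26 without control tumour 3. The order of the control tumours was not that of TMSB4X: control tumour 3 was the highest for TMSB10 and the lowest for TMSB4X. The log2 difference between the paralogs within each array, TMSB10 minus TMSB4X, stood at -2.53 in IR-A relative to control tumours (SE 0.81), without overlap. Like the other paralog differences below, it restates the values of its 2 genes and is no further result. It was -1.77 without control tumour 3 and -2.99 without control tumour 2.

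TMSB15A, a thymosin found in neural tissue and in some carcinomas, was dim throughout. It read 2.57, 2.68 and 2.62 in IR-A tumours and 3.19, 2.65 and 3.06 in control tumours. Control tumour 2 lay among the IR-A tumours, and the other controls lay above them. The difference was -0.34 (SE 0.15, 95% interval -0.71 to 0.019), with -0.50 without control tumour 2 and -0.23 without control tumour 1.

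**Figure D1:**
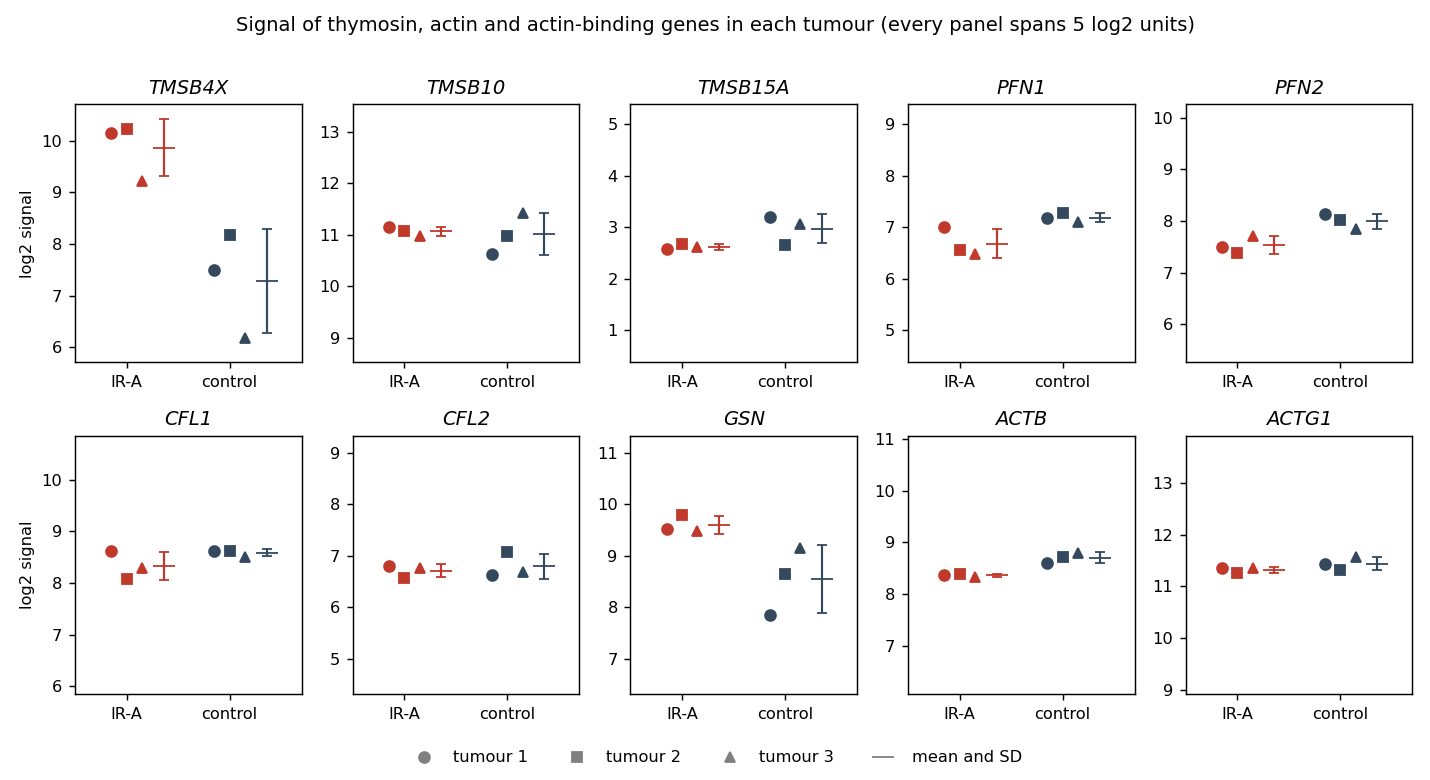
Log2 signal of the 10 genes (y axis, each panel spanning 5 log2 units) in the 3 IR-A tumours (left) and the 3 control tumours (right), with the mean and SD beside the points. TMSB4X and GSN lie higher in all IR-A tumours, PFN1, PFN2 and ACTB lie lower, and in the other 5 the groups overlap.

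GSN, the calcium-regulated severing and capping protein, was the second of the 10 with higher signal in every IR-A tumour. It had 9.52, 9.79 and 9.48 in IR-A tumours and 7.86, 8.65 and 9.15 in control tumours. The gap between the nearest tumours of the groups was 0.33, and the control tumours spread over 1.29 against 0.31 among IR-A tumours. Means were 9.60 ± 0.17 in IR-A and 8.55 ± 0.65 in control tumours (SD, n = 3 each), a difference of 1.04 (SE 0.31, 95% interval 0.29 to 1.79) or 2.06-fold. The difference was 0.70 without control tumour 1, the lowest, and 1.34 without control tumour 3, the highest of the controls. Plasma and cytoplasmic gelsolin arise from different starts of the gene, which its 1 probe set gives no separate values for, and 6 of the 14 promoter windows belong to GSN.

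The profilins differed in the opposite direction and by similar amounts. PFN1, the ubiquitous profilin, had 6.996, 6.57 and 6.48 in IR-A tumours and 7.17, 7.28 and 7.10 in control tumours. Its difference was -0.50 (SE 0.15, 95% interval -0.86 to -0.14), with a gap of 0.10 between the groups. PFN2, the profilin best known from neurons, had 7.50, 7.38 and 7.72 in IR-A tumours and 8.14, 8.02 and 7.85 in control tumours. Its difference was -0.46 (SE 0.13, 95% interval -0.77 to -0.16), with a gap of 0.13. All IR-A tumours were thus below all control tumours for both profilins, though by narrow gaps. PFN2 minus PFN1 differed between the groups by 0.036 (SE 0.22), with overlap, and without single tumours it ran from -0.15 to 0.21.

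The cofilins showed smaller differences, and their groups overlapped. CFL1, the non-muscle cofilin, had 8.62, 8.08 and 8.30 in IR-A tumours and 8.63, 8.62 and 8.50 in control tumours. IR-A tumour 1 read as the controls did, and the difference was -0.25 (SE 0.15, 95% interval -0.61 to 0.10), or -0.40 without that tumour and -0.13 without IR-A tumour 2. CFL2, the cofilin of muscle, had 6.80, 6.58 and 6.77 in IR-A tumours and 6.62, 7.07 and 6.69 in control tumours. Its difference was -0.079 (SE 0.15, 95% interval -0.43 to 0.27), and it was 0.059 without control tumour 2. CFL2 minus CFL1 differed by 0.17 (SE 0.17) with overlap, and by 0.065 without control tumour 1 and 0.29 without control tumour 2.

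Of the cytoplasmic actins, ACTB read lower in every IR-A tumour. It had 8.37, 8.39 and 8.32 in IR-A tumours and 8.60, 8.72 and 8.80 in control tumours. The values were tight within the groups, at 8.36 ± 0.036 in IR-A and 8.71 ± 0.10 in control tumours (SD, n = 3 each). The difference was -0.34 (SE 0.093, 95% interval -0.57 to -0.12), a factor of 0.79, and it ran from -0.40 to -0.30 with single tumours left out. ACTG1 had 11.35, 11.26 and 11.35 in IR-A tumours and 11.44, 11.31 and 11.57 in control tumours. Its groups overlapped, and the difference was -0.12 (SE 0.10, 95% interval -0.37 to 0.12), or -0.058 without control tumour 3 and -0.19 without control tumour 2. ACTG1 minus ACTB was 0.22 higher in IR-A tumours (SE 0.088) without overlap. ACTB is often used as the reference gene that scales other expression measurements.

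**Figure D2:**
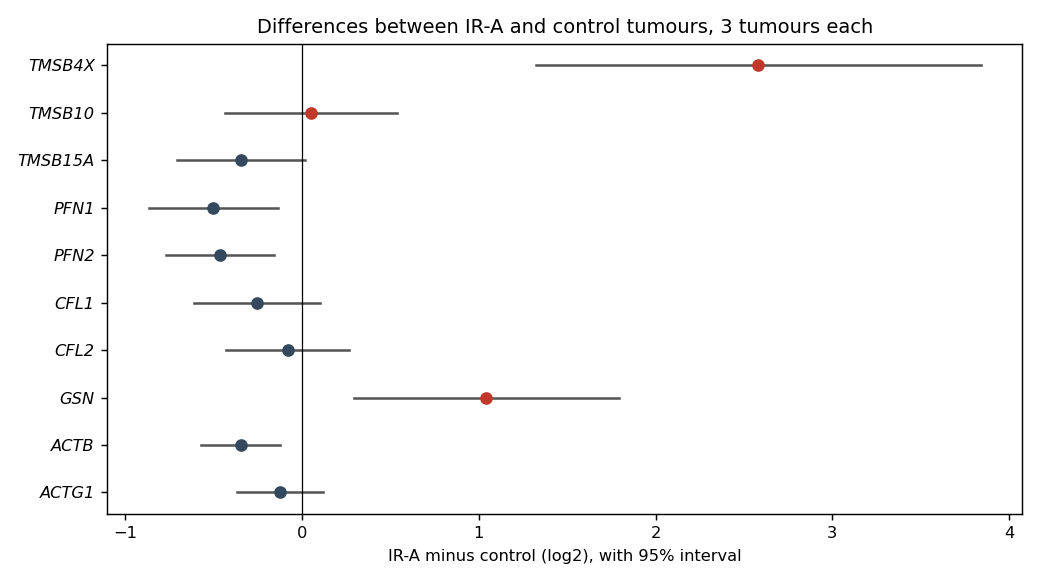
Difference between IR-A and control tumours on the log2 scale (x axis) for the 10 genes, with the 95% interval from limma's fit. TMSB4X (2.58) and GSN (1.04) stand on the higher side, and 7 of the 10 means lie below 0.

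Over the 10 genes, 3 means were higher and 7 lower in IR-A tumours, with a median difference of -0.19. Over all probe sets the median was -0.026, with 44% above 0 and 56% below. The groups did not overlap in 2 genes with IR-A higher (7.73% of all probe sets) and in 3 with IR-A lower (9.45% of all). At an unadjusted p under 0.05 these were the same counts, 2 higher (7.1% of all) and 3 lower (7.03% of all), and 0 of the 10 passed at an adjusted p of 0.05 in limma. As the genes were chosen with this comparison known, nothing is read from these counts. The signs of all 10 means were kept when arrays were quantile normalized or centred on their medians. RefSeq lists pseudogenes named after several of the genes, 21 after ACTG1, 14 after ACTB, 10 after PFN1, 8 each after TMSB4X and CFL1 and 2 after TMSB10. A probe set of their own was found for 4 of those of ACTG1 and 1 each of PFN1 and CFL1. It was found for 0 of those of TMSB4X, TMSB10 and ACTB. Whether the probe sets separate the genes from these copies was not tested.

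The nearest profiles were sought for the thymosins and GSN among the other 23921 named genes, by the root mean square distance between log2 signals over the 6 tumours after each gene was centred on its own mean. For TMSB4X, which spanned 4.04 over the tumours, the nearest was VCAM1, an adhesion molecule that leukocytes bind, at a distance of 0.25. VCAM1 had 9.90, 9.85 and 9.34 in IR-A tumours and 7.05, 8.38 and 6.17 in control tumours. Within the controls, tumour 2 was its highest and tumour 3 its lowest, as for TMSB4X. Choosing genes by distance over these same tumours favours such a shared order, so nothing further is read from it. The next were PARM1 (0.40), the alcohol dehydrogenase gene ADH1A (0.49) and GCA (0.52), which encodes a calcium-binding protein of granulocytes.

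For GSN, which spanned 1.93, the nearest genes were CALCOCO1 (0.13), the annexin gene ANXA4 (0.13), complement factor B, CFB (0.15), and YPEL2 (0.15). All 4 had control tumour 1 as their lowest and control tumour 3 as their highest control, as GSN did, which the choice by distance again favours. For TMSB10, which spanned 0.81, they were XPNPEP1 (0.055), WBP2 (0.055), B9D1 (0.062) and CTSF (0.066). For TMSB15A, which spanned 0.62, they were MIR934 (0.016), NDRG4 (0.019), CDC34 (0.033) and GFI1 (0.041). Small spans leave small distances to many genes, so the last 2 lists say little. None of the other members was among the genes searched.

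**Figure D3:**
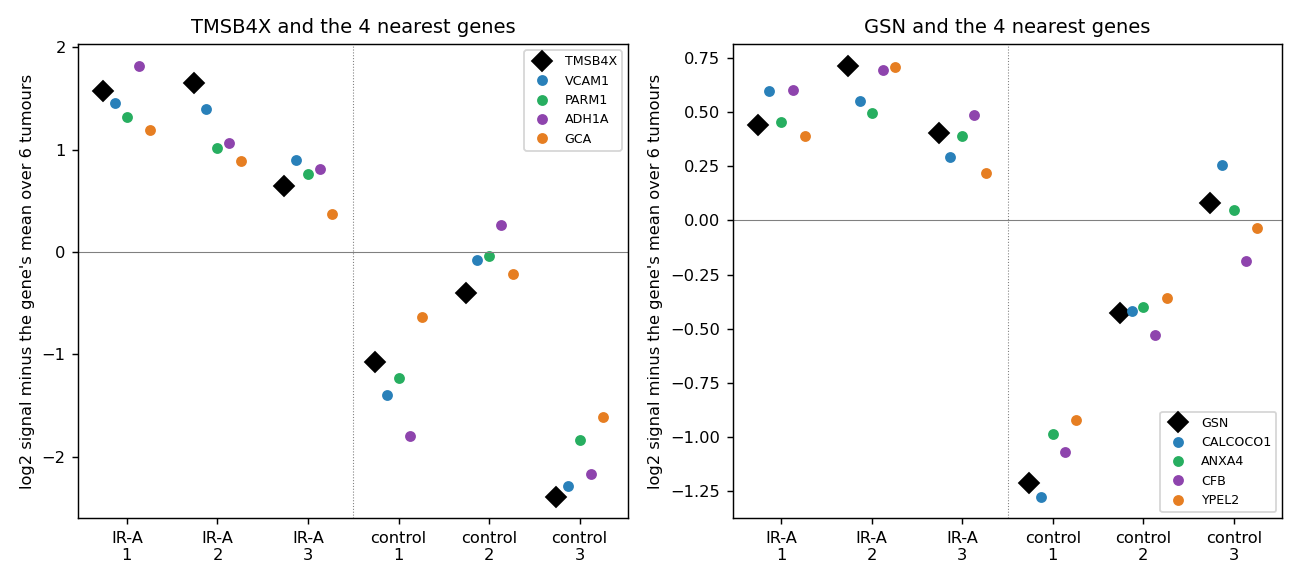
Log2 signal minus each gene's own mean (y axis) in the 3 IR-A and 3 control tumours (x axis) for TMSB4X (left) and GSN (right), each with its 4 nearest genes. The nearest genes, chosen by distance over these tumours, repeat the order of the controls. Control tumour 3 is lowest for TMSB4X and control tumour 1 for GSN.

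The rest of the actin machinery was taken as 7 lists by role, of 113 genes, 103 of which had a named probe set. Of these, 0 were called at an adjusted p of 0.05 in limma, as over all probe sets (0%), 58 had a mean above 0 and 45 below. At an unadjusted p under 0.05 there were 16 (15.5%), 8 higher and 8 lower, close to the 14.1% of all probe sets. Their median difference was 0.032, against -0.026 over all probe sets. Without control tumour 2, where 308 probe sets were called, 1 of the 103 was, the tropomyosin gene TPM2.

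Among factors of monomer binding and turnover, 13 were measured, 6 above 0 and 7 below. Of the 13, 1 (7.69%) had an unadjusted p under 0.05, against 14.1% of all probe sets. That gene was LIMK1, the kinase that switches cofilin off, at 5.90, 5.97 and 6.04 in IR-A tumours and 6.94, 6.41 and 6.25 in control tumours. Its difference was -0.56 (SE 0.18, adjusted p = 0.258 in limma), or -0.36 without control tumour 1. The cofilin phosphatase SSH1 differed by 0.021 (SE 0.14) and the cofilin relative DSTN by 0.097 (SE 0.12), both with overlap.

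Of 18 Arp2/3 subunits and activators, which start branched filaments, 11 were above 0. Of the 18, 1 (5.56%) had an unadjusted p under 0.05, against 14.1% of all probe sets. It was the subunit ARPC5, at 0.54 (SE 0.22, adjusted p = 0.339 in limma) with overlap, a gene chosen after its value was seen. The subunits ACTR3 (-0.064, SE 0.12) and ARPC2 (0.037, SE 0.14) and the activator WASL (0.27, SE 0.15) did not pass. Of 16 formins and elongators, which build straight filaments from profilin-bound actin, 8 were above 0. Of the 16, 2 (12.5%, against 14.1% of all probe sets) had an unadjusted p under 0.05, both lower. DIAPH3, a formin also tied to cell division, had 6.33, 6.24 and 6.43 in IR-A tumours and 7.23, 6.71 and 6.67 in control tumours, a difference of -0.54 (SE 0.17, adjusted p = 0.243 in limma). DIAPH1 (0.053, SE 0.11) and VASP (-0.12, SE 0.18) had overlapping groups.

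Of 16 capping proteins and relatives of gelsolin, 13 were above 0 and 5 had an unadjusted p under 0.05, all 5 higher (31.2% of the list, against 7.1% of all probe sets on that side). None of them passed after adjustment, and whether this list stands apart from other genes was not tested. SVIL, the membrane-linked relative supervillin, had 5.55, 6.12 and 5.33 in IR-A tumours and 4.13, 4.92 and 4.60 in control tumours, a difference of 1.11 (SE 0.27, adjusted p = 0.173 in limma). VIL1, the villin of microvilli, had 9.75, 9.67 and 9.90 in IR-A tumours and 8.96, 9.27 and 9.61 in control tumours, 0.50 apart (SE 0.17, adjusted p = 0.289). CAPG, a gelsolin-like capping protein, differed by 0.41 (SE 0.12, adjusted p = 0.233). CAPZB, a subunit of the general capping protein, differed by 0.0029 (SE 0.098), and SCIN, a close relative of gelsolin, by 0.0073 (SE 0.13), a gene chosen after its value was seen.

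Of 11 crosslinking proteins, 8 were above 0. Of the 11, 2 (18.2%, against 14.1% of all probe sets) had an unadjusted p under 0.05, 1 in each direction. FSCN1, which bundles filaments in filopodia, differed by -0.44 (SE 0.15, adjusted p = 0.269 in limma) at dim signals of 3.77 in IR-A and 4.21 in control tumours. ACTN4 (0.14, SE 0.10) and PLS3 (0.19, SE 0.11) had overlapping groups. LCP1, the plastin of leukocytes that many carcinomas also express, had the highest difference of the list, 0.62 (SE 0.24), and was chosen after its value was seen.

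Of 14 tropomyosin, calponin and myosin genes, 7 were above 0. Of the 14, 2 (14.3%, against 14.1% of all probe sets) had an unadjusted p under 0.05, both tropomyosins. TPM2 had 8.31, 8.32 and 8.27 in IR-A tumours and 9.90, 9.04 and 9.79 in control tumours. The difference was -1.28 (SE 0.23, adjusted p = 0.14 in limma), the lowest of the 103, and without control tumour 2 it was -1.55 and passed (adjusted p = 0.0255). TPM4 had 6.68, 6.37 and 6.62 in IR-A tumours and 7.63, 6.94 and 7.10 in control tumours, a difference of -0.67 (SE 0.19, adjusted p = 0.223). The myosin heavy chain MYH9 (0.48, SE 0.26) and light chain MYL6 (-0.21, SE 0.11) had overlapping groups, and MYH9 was at 0.21 without IR-A tumour 2.

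From the last list, whose counts are not reported here, SRF, MRTFA and CCN2 are given as its key genes and MRTFB for its small p. SRF, which drives actin genes through CArG boxes, had 7.33, 7.23 and 7.38 in IR-A tumours and 7.96, 8.01 and 7.69 in control tumours, a difference of -0.57 (SE 0.12, adjusted p = 0.147 in limma). Its coactivator MRTFB had 7.92, 7.80 and 7.35 in IR-A tumours and 7.02, 7.28 and 6.74 in control tumours, 0.68 apart (SE 0.20, adjusted p = 0.225). MRTFA differed by -0.033 (SE 0.082). CCN2, a known target of MRTF and YAP, had 7.87, 8.09 and 8.65 in IR-A tumours and 9.43, 8.65 and 8.97 in control tumours, a difference of -0.82 (SE 0.26, adjusted p = 0.258).

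**Figure D4:**
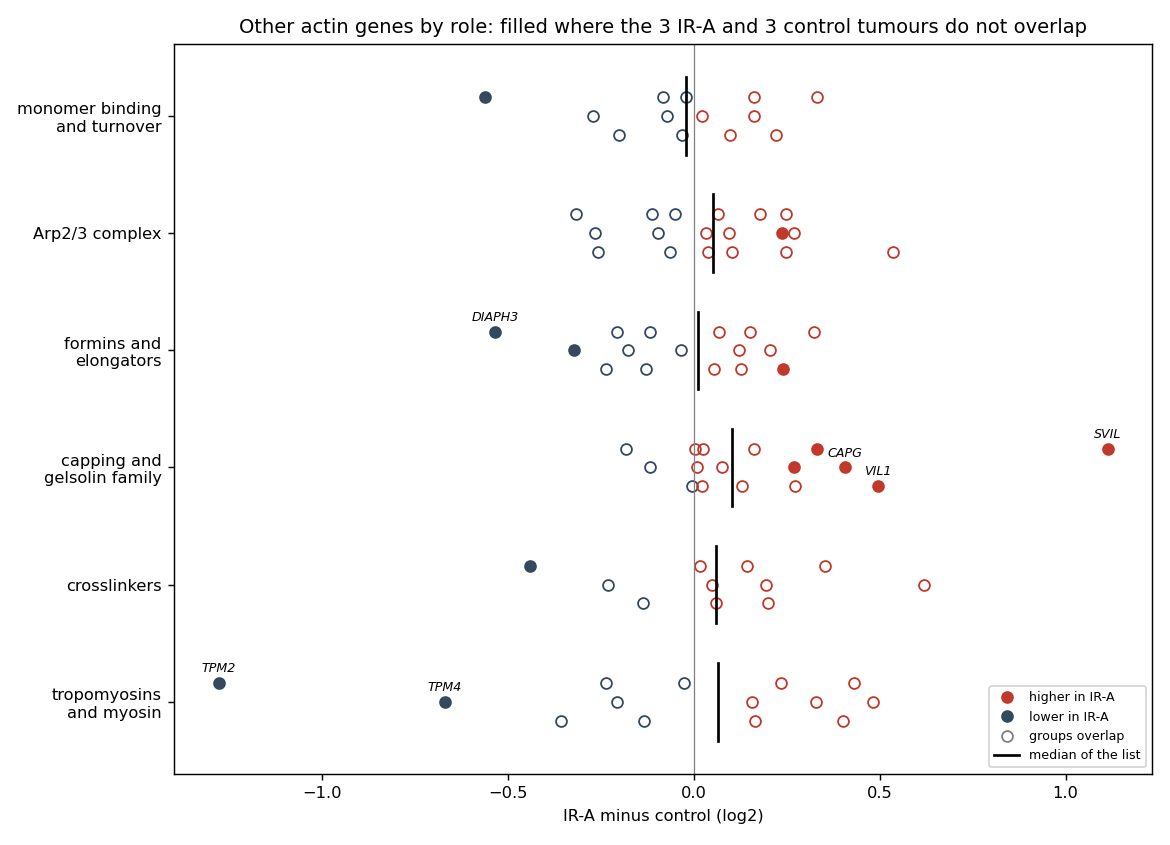
Difference between IR-A and control tumours on the log2 scale (x axis) for 88 actin genes in 6 lists (y axis), with the median of each list. Filled points mark genes whose groups do not overlap, and labels name those among the genes of smallest p, of which TPM2 (-1.28) and SVIL (1.11) lie farthest out.

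Smooth muscle actins mark smooth muscle, pericytes and myofibroblasts, which the host could supply. Of 8 smooth muscle and pericyte markers, 5 had a higher mean in IR-A tumours, and their mean log2 signal was 4.33 to 4.46 in IR-A and 4.12 to 4.45 in control tumours. ACTA2 had a mean of 3.76 in IR-A and 3.82 in control tumours, with overlap. ACTG2 was dim at 3.45 in IR-A and 3.00 in control tumours, without overlap by a gap of 0.011. Fibroblast markers had a list mean of 4.58 to 4.67 in IR-A and 4.24 to 4.56 in control tumours, without overlap by a narrow margin. Of these markers, 7 of 10 were higher by mean. Without overlap, 3 were higher and 1 lower (7.73% and 9.45% of all probe sets). LUM had a mean of 4.24 in IR-A and 2.98 in control tumours, COL1A2 5.85 and 5.02, and COL1A1 6.64 and 6.25. FAP lay the other way, at 2.96 in IR-A and 3.04 in control tumours. The list means of endothelial markers ran from 3.996 to 4.03 in IR-A and 3.95 to 4.15 in control tumours. Those of platelet markers ran from 3.88 to 4.002 in IR-A and 3.96 to 4.195 in control tumours, and those of skeletal muscle markers from 3.77 to 4.04 in IR-A and 3.88 to 4.13 in control tumours. All 3 list means lay below the median signal of every array and overlapped between the groups. The smooth muscle and pericyte list also lay below the median signal in all 6 arrays, and the fibroblast list in 5 of 6. Single markers without overlap were the endothelial PECAM1, higher at 5.90 in IR-A and 5.39 in control tumours, and the muscle CKM, lower at 4.75 and 5.23. How far mouse transcripts bind to these probe sets of human genes is not known from the files, and the part of host cells in the differences of the actin genes was not tested.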

How the data were processed

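The data are 6 arrays, 3 per group, each from 500 ng of total RNA extracted with Trizol, per the labels' protocols. The authors deposited 1 log2 signal for each array and probe set. The submitters' processing notes name RMA and Partek, with neither version nor role. Not given in the sources used here are array model, probe set definition and build. The log2 scale was read from the values. RMA compresses differences of dim probe sets.

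Of 24726 probe sets, 23934 carried 1 symbol in GEO's platform annotation and 792 were unnamed here. The brighter probe set was kept for 3 symbols with several. Arrays shared at most 4.15% of values. Not analysed here were 10 listed actin genes that this annotation does not name, among them FLNA and CAP1. For most of the 10 a row with the gene ID exists, and its values were left unused.

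All probe sets were fitted together with limma 3.58.1 in R 4.3.3 (lmFit, eBayes, no filter) with Benjamini-Hochberg adjustment, after the script was tested on simulated data. SE and intervals are moderated, except the SE of paralog differences. P-values reflect only the spread between these tumours, and an exact permutation test of 3 against 3 cannot go below 0.1. The number of arrays limits the precision. Members and lists were chosen with earlier results of these data known. The rule named all 10 members, key genes of each list, and the 4 genes of smallest p per direction over the lists, 25 list genes in all. The count of 1 list and 1 of these genes are not reported here. Others are stated as chosen after their values were seen, apart from marker genes and the nearest genes. Alternatives covered scaling, dim filters, moderation, array weights, a replicate block and single tumours left out. Figures were drawn with matplotlib 3.10.9.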

Additional observations from a re-analysis of the deposited data

How the results depend on the processing

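The files give no background per probe set, so differences of dim genes such as TMSB15A are the least sure. The number of probe sets that limma called, 0 as reported, was 14 and 20 without the dimmest 25% and 50% of probe sets, 11 with array weights, and 0 to 308 with 1 tumour left out. At looser thresholds it was 18 (adjusted p under 0.1) and 3493 (unadjusted p under 0.05), and 16 of the other actin genes passed the latter. Of the other actin genes, 0 to 1 were called with 1 tumour left out, TPM2 without control tumour 2. Those at an unadjusted p under 0.05 numbered 3 to 15 higher (8 with all tumours) and 5 to 14 lower (8 with all tumours), lowest without tumour 1 of either group and highest without control tumour 2. TMSB4X ran from 2.03 to 3.02 and GSN from 0.70 to 1.34. The 10 members' differences moved by less than 1 SD in every setting (the root of the mean of both groups' variances), but TMSB10 (-0.14 to 0.26) and CFL2 (-0.17 to 0.059) changed sign with single tumours left out. Differences near 0 also changed sign among SSH1 (-0.076 to 0.11, and -0.035 with array weights), ACTR3 (-0.14 to 0.0022), ARPC2 (-0.067 to 0.17), DIAPH1 (-0.028 to 0.0999), VASP (-0.30 to 0.0041) and CAPZB (-0.045 to 0.075, and -0.0093 with quantile normalization). Without changing sign, single tumours moved LIMK1 (-0.70 to -0.36), DIAPH3 (-0.64 to -0.36), WASL (0.16 to 0.41), MYH9 (0.21 to 0.62), DSTN (0.011 to 0.21), ACTN4 (0.079 to 0.21) and MRTFA (-0.047 to -0.011) by over 1.5 times. The causes were not tested. Same-numbered tumours did not deviate together (correlations -0.29, -0.36 and 0.020, against -0.32 to 0.50 for tumours of unlike number). With 3 tumours per group, centred on their group's mean, these values cannot tell whether the numbers pair tumours. The replicate block cannot change a difference in this balanced design. With it limma called 0 probe sets, and the lowest adjusted p of the 10 genes was 0.342, against 0.148 without it.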
